A study of Mus musculus with 12 samples.

Results

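The comparison of CSDS with untreated control covers 6 of the 12 samples of the series, 3 libraries in each group, chosen by the treatment and replicate that their labels and the column names of the count table give. All were RNA sequencing libraries from the ventral hippocampus of mice with the genotype WT. The CSDS group was exposed to CSDS, which in this field usually stands for chronic social defeat stress, and the control group received no treatment. The labels give only the abbreviation, and age, sex, strain and the time of dissection are not given in the sources used here. Since no label ties a replicate to its own animal, each p-value reflects only how far these libraries differ, which may be technical. The other 6 samples, from mice given a virus and exposed to SSDS, entered no value below unless a fit of all 12 libraries is named.

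In social defeat, a mouse is repeatedly attacked by a larger aggressor, and part of the exposed animals come to avoid social contact. The ventral hippocampus projects to the amygdala, the prefrontal cortex and the hypothalamus and is known for its role in anxiety-like behaviour and in the feedback control of stress hormones. Its excitatory circuit runs from granule cells of the dentate gyrus through pyramidal neurons of CA3 to those of CA1, with inhibitory interneurons at each stage, and it borders the ventricle, whose choroid plexus and ependyma can enter a dissection.

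Libraries held 14979289 to 16761509 counts in control and 15756656 to 17694570 in CSDS. Levels are given as CPM (counts scaled to a common library size after TMM), and differences as log2 fold changes of CSDS over control with their standard error (SE). A principal component analysis put control libraries at -28.3 to -9.52 and CSDS libraries at 17.1 to 23.1 on the first axis, with 31.2% of the variance. Within groups, a tested gene had a median SD of 0.15 in control and 0.153 in CSDS on the log2 CPM scale (n = 3 each). Neurod6 and Zbtb20, taken as markers of hippocampal neurons, summed to 346 to 605 CPM in every library. The hypothalamic markers Hcrt, Pmch and Avp together stayed at 0.252 to 0.912 CPM. Markers of other neighbouring regions were present, with sums of 66.6 to 95.2 CPM for cortex (Rorb, Lamp5, Cux2). For striatum (Drd1, Ppp1r1b, Rgs9) the sums were 58.1 to 79.2 CPM and for thalamus (Tcf7l2, Lef1, Rora) 28.8 to 36.3 CPM. How much neighbouring tissue each dissection held was not tested.

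Of 16325 genes tested, 84 passed (0.515%; edgeR quasi-likelihood test, Benjamini-Hochberg adjusted p under 0.05, two-sided). In CSDS 40 genes were higher (0.245% of those tested) and 44 were lower (0.27%). Higher genes were led by 3 haemoglobin chains and included the cytoskeletal genes Tmsb10 and Stmn1, the peptide precursors Vgf and Adcyap1, the convertase Pcsk1 and both mitochondrial ribosomal RNAs. Lower genes included Ttr of the choroid plexus, the dentate granule cell genes Dsp and Pdzd2, the adenylyl cyclases Adcy1 and Adcy9, the channel genes Kcna1, Cacng5, Trpm3 and Orai2, and the kinase genes Camk2b and Prkcd. Absolute log2 fold changes of the called genes ran from 0.42 to 6.35 with a median of 0.71, and 16 exceeded 2-fold, 11 higher and 5 lower. The median over all tested genes was 0.002, and 50.3% were higher in CSDS. In CPM the CSDS and control libraries did not overlap for 3361 genes, 20.6% of those tested (10.4% higher and 10.2% lower in CSDS), and the 84 called genes were among them.

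The number of calls differed widely between fits. With all 12 libraries in 1 edgeR fit, 0 genes passed, with 993 at an unadjusted p under 0.05, while on these 6 libraries 2535 genes were under that p (1278 higher, 1257 lower) and the DESeq2 Wald test called 511. The biological coefficient of variation was 0.201 in the fit of 12 libraries and 0.120 in that of 6. Leaving out 1 library changed the count to 12 without Control 1, 242 without Control 2, 67 without Control 3, 5 without CSDS 1, 55 without CSDS 2 and 17 without CSDS 3. Hba-a1, Hbb-bs, Hbb-bt and Tmsb10 were called in each of these 6 fits, and each of the other 80 genes lost its call in at least 1. Among these 80, Wipf3, Orai2 and Nhsl2 were called in 5 of the 6 fits. Vgf, Pcsk1, Hes5 and Ddit4l were called in 1 and Camk2b in 0.

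**Figure D1:**
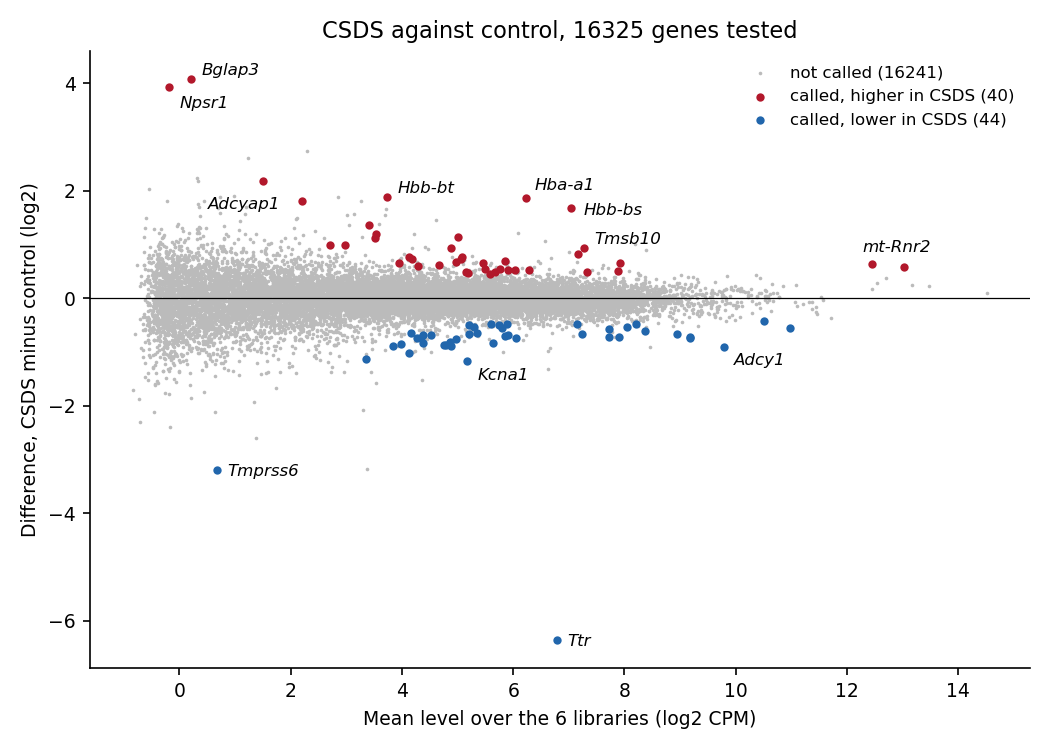
Difference between CSDS and control (log2, vertical) against the mean level over the 6 libraries (log2 CPM, horizontal), 1 point per tested gene. The 40 red genes were called higher and the 44 blue genes lower; Hba-a1 and Hbb-bs stand out at high level, and Ttr lies lowest at -6.35.

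Haemoglobin carries oxygen in red blood cells and is a tetramer of alpha and beta chains, whose genes are switched on together late in red cell development. The 3 called chains and a processing enzyme are shown here by the 120 bases before their RefSeq start site (GRCm38.p6), since the chains moved together and since the promoter of the enzyme, Pcsk1, holds the letters of a cyclic AMP response element. In the globin lines capitals mark the letters CCAAT and CACCC, the core letters of boxes known from globin promoters, on either strand. In Pcsk1 they mark TGACG on either strand, which the full element TGACGTCA contains on both. The gene models in the authors' table begin upstream of the RefSeq start for the 3 globin genes and also for Pcsk1, so these windows overlap them in part or in whole.
Hbb-bs, chr7:103827929-103828048, minus strand: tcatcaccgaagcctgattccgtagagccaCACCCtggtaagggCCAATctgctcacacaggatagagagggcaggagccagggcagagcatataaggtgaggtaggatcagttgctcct
Hbb-bt, chr7:103813924-103814043, minus strand: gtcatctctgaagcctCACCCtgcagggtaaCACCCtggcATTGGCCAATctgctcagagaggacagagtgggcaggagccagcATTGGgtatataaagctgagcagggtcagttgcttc
Hba-a1, chr11:32283552-32283671, plus strand: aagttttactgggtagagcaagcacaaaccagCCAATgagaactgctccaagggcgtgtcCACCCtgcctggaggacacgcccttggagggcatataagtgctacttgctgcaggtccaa
Pcsk1, chr13:75089737-75089856, plus strand: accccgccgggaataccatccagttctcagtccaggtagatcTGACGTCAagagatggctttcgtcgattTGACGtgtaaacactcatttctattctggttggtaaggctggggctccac

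All 3 globin windows held the CCAAT letters, those of the CACCC box and the TATA letters (TATAA). Over the 250 bases before the start, CCAAT was found for 39.9%, CACCC for 61.9% and TATAA for 14.9% of the 11692 tested genes with an entry (both strands, any start site of the gene). Among called genes with an entry, TATAA was found for 13 of 30 higher genes (43.3%) and 7 of 29 lower genes (24.1%). The full element TGACGTCA was found for 3 of 30 higher genes, Pcsk1, Olfm2 and Cds1, for 0 of 29 lower genes and for 2.97% of tested genes. The AP-1 letters TGACTCA were found for 0 higher and 1 lower gene, against 3.85% of tested genes, and AGATAA, the GATA letters, for 2 and 1, against 7.23%. A match is a description of the letters in the window, not of a bound factor.

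Hba-a1, an adult alpha chain (ENSMUSG00000069919, mm10 chromosome 11, 32283511 to 32284465), reached 29.2, 33.9 and 34.0 CPM in control and 122, 124 and 107 CPM in CSDS. All CSDS libraries lay far above all controls, with a log2 fold change of 1.86 ± 0.10 (SE; edgeR adjusted p = 5.69e-06). Hbb-bs, an adult beta chain (ENSMUSG00000052305, chromosome 7, 103826534 to 103828096), was at 51.3, 70.4 and 66.0 CPM in control and 224, 174 and 202 CPM in CSDS. Its log2 fold change was 1.68 ± 0.13 (edgeR adjusted p = 1.58e-04), and the lowest CSDS library was above the highest control. Hbb-bt, the second adult beta chain, was at a lower level, at 3.54, 6.67 and 6.46 CPM in control and 23.9, 17.2 and 20.6 CPM in CSDS (log2 fold change 1.88 ± 0.21, edgeR adjusted p = 0.00500). The paralogous chains are nearly identical, and their reads cannot be assigned to 1 copy with certainty.

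Of 10 tested red blood cell genes, 8 were higher and 3 called higher, with a median log2 fold change of 1.27. Among all tested genes 0.245% were called higher. Hba-a2, the other alpha chain, was at 1.94, 7.71 and 3.41 CPM in control and 11.2, 14.4 and 13.1 CPM in CSDS, and missed the threshold (edgeR adjusted p = 0.0669). Alas2, which starts haem synthesis in red cell precursors, was at 2.40, 2.35 and 2.15 CPM against 7.95, 4.03 and 5.29 CPM (edgeR adjusted p = 0.0601). Fech and Bpgm, members that other tissues express too, differed by -0.11 and -0.01 on the log2 scale. More cells of a type and more RNA per cell cannot be told apart in these bulk samples, and the amount of blood left in the tissue is not given in the sources used here.

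**Figure D2:**
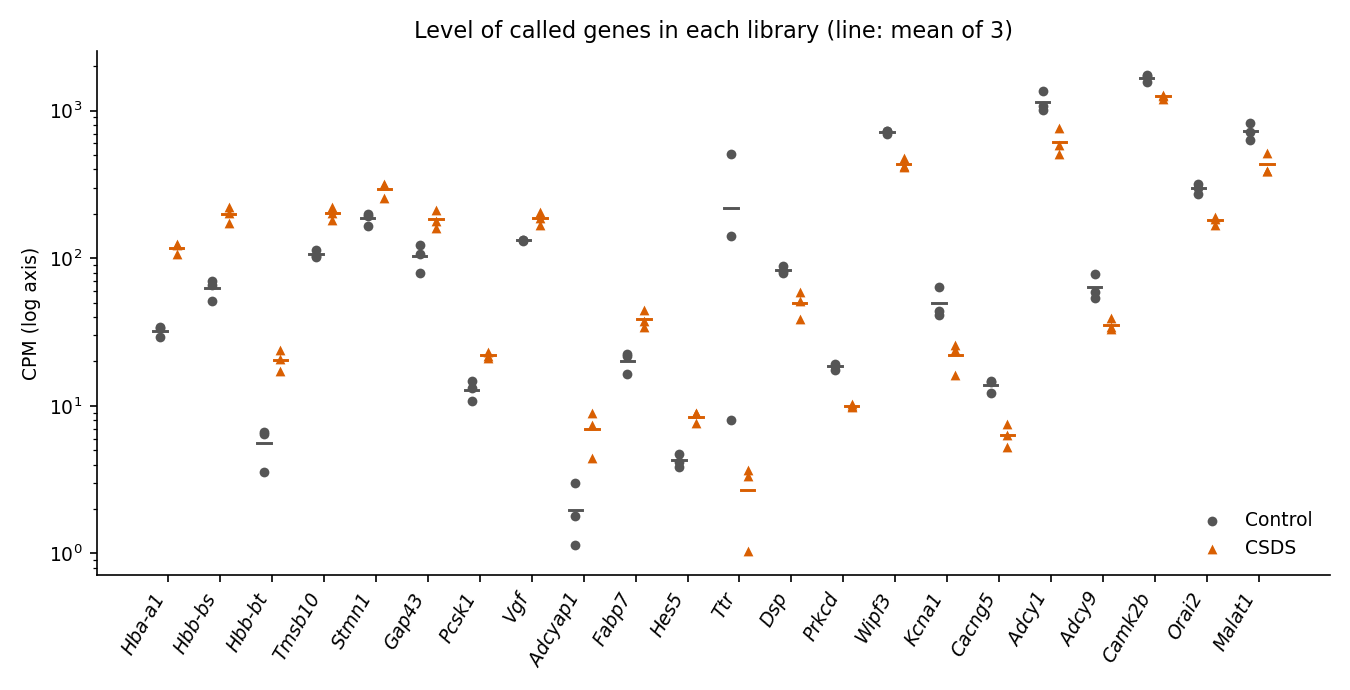
Level of 22 called genes in each library (CPM, log axis), circles for the 3 control libraries, triangles for the 3 CSDS libraries and a line for each mean. The groups do not overlap for any gene shown; Ttr spreads from 7.96 to 507 CPM within control.

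Ttr, transthyretin, a thyroid hormone carrier secreted by choroid plexus (ENSMUSG00000061808, chromosome 18, 20665250 to 20674324), was the most strongly lowered gene. It was at 507, 142 and 7.96 CPM in control and 3.66, 3.33 and 1.03 CPM in CSDS, so that the groups did not overlap although control libraries differed among themselves by far more than CSDS libraries did. The log2 fold change was -6.35 ± 1.12 (SE; edgeR adjusted p = 0.0392), and the call was lost without Control 1 (-4.80, adjusted p = 0.0867), CSDS 1 (0.172), CSDS 2 (0.0863) or CSDS 3 (0.124). All 8 tested choroid plexus genes were lower, with a median of -0.92 that was -0.48 without Control 1 and -2.26 without Control 3. For 2 of the 8 the CSDS libraries lay below the controls without overlap, as for 10.2% of all tested genes. Kl, the co-receptor klotho, was at 35.1, 22.4 and 28.7 CPM in control and 15.8, 19.9 and 16.5 CPM in CSDS (edgeR adjusted p = 0.0669). The summed defining markers were highest in Control 1, at 554, 169 and 37.6 CPM in control and 20.9, 24.7 and 18.0 CPM in CSDS (exact permutation test, two-sided, p = 0.1, the smallest that 3 against 3 allows). Ttr made up most of that sum in Control 1, and Kl most of it in Control 3 and in each CSDS library. Folr1, another of these markers, overlapped between groups, at 2.27, 0.85 and 0.179 CPM in control and 0.315, 0.818 and 0 CPM in CSDS. How much plexus each dissection held was not tested.

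Of 14 ependymal and cilia genes, which line the ventricle, 13 were lower and 0 called, with a median of -0.51. Leaving out CSDS 3 gave -0.14 and leaving out CSDS 2 gave -1.42. Tekt4, a protein of ciliary microtubules, was at 0.868, 2.88 and 0.957 CPM in control and 0.631, 0.467 and 0.425 CPM in CSDS (edgeR adjusted p = 0.158). Dnah9, an axonemal dynein that is not on the list, was called, at 27.2, 23.9 and 28.2 CPM against 15.8, 16.9 and 12.1 CPM (log2 fold change -0.82 ± 0.14, edgeR adjusted p = 0.0314).

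Of 17 dentate granule cell genes 15 were below control and 2 called, with a median of -0.37, against 0.002 for all tested genes. The libraries did not overlap for 10 of the 17, all lower, as for 10.2% of all tested genes, and 0.27% of all tested genes were called lower. Dsp, desmoplakin, a junction protein that marks granule cells, was at 82.2, 88.2 and 79.9 CPM in control and 38.9, 51.4 and 59.0 CPM in CSDS. The CSDS libraries all lay below the controls, with a log2 fold change of -0.74 ± 0.13 (SE; edgeR adjusted p = 0.0377). Pdzd2, a PDZ domain protein, was at 66.5, 69.4 and 61.8 CPM against 40.8, 46.9 and 47.2 CPM (-0.55 ± 0.09, edgeR adjusted p = 0.0345). Prox1, the transcription factor that keeps granule cell identity, was at 146, 139 and 172 CPM against 92.6, 137 and 114 CPM and was not called (edgeR adjusted p = 0.164). Calb1, a calcium buffer of granule and CA1 cells, went the other way without passing, at 189, 171 and 142 CPM against 186, 253 and 182 CPM. The summed markers Prox1, C1ql2 and Dsp were 353, 377 and 416 CPM in control and 222, 330 and 299 CPM in CSDS (exact permutation test, two-sided, p = 0.1, the smallest possible), and the share of dentate gyrus in each dissection was not tested.

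Medians for the other hippocampal fields were nearer to 0. Of 11 CA1 genes, 7 were higher and 0 called (median 0.07). Of 14 CA3 and CA2 genes, 6 were higher and 1, Cacng5, was called lower (median -0.08), as were 0.27% of all tested genes. Wfs1, an endoplasmic reticulum protein that marks CA1, was at 101, 97.9 and 192 CPM in control and 75.1, 55.1 and 68.8 CPM in CSDS (edgeR adjusted p = 0.0712). Of 20 inhibitory neuron genes, 18 were higher and 0 called, with a median of 0.21, and 9 were higher without overlap, as were 10.4% of all tested genes. Kit, a receptor of some interneurons, was at 70.0, 81.9 and 46.8 CPM in control and 110, 123 and 90.3 CPM in CSDS (edgeR adjusted p = 0.0890). The sum of Gad1, Gad2 and Slc32a1, which define GABAergic cells, overlapped, at 371 to 409 CPM in control and 405 to 420 CPM in CSDS.

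Genes that act on actin, microtubules or the membrane skeleton were called in both directions, a group put together after the calls were seen. Tmsb10, a thymosin that binds actin monomers, was at 101, 103 and 114 CPM in control and 224, 181 and 201 CPM in CSDS. The groups were well apart, with a log2 fold change of 0.93 ± 0.10 (SE; edgeR adjusted p = 0.00414). Stmn1, stathmin, which destabilises microtubules, was at 201, 194 and 166 CPM against 314, 257 and 318 CPM (0.67 ± 0.11, edgeR adjusted p = 0.0314). Gap43, a growth cone protein, was at 106, 123 and 79.9 CPM against 179, 212 and 160 CPM (0.83 ± 0.15, edgeR adjusted p = 0.0409). Cobl, an actin nucleator, was called too, at 5.01, 7.39 and 5.14 CPM in control and 18.0, 9.93 and 17.6 CPM in CSDS, with CSDS 2 nearest to the controls. Lower were Wipf3 (below), Sptb, a beta spectrin, at 222, 241 and 292 CPM in control and 171, 161 and 175 CPM in CSDS (-0.58 ± 0.11, edgeR adjusted p = 0.0420), and Add2, an adducin that caps actin, at 377, 394 and 433 CPM against 264, 216 and 306 CPM (-0.62 ± 0.12, edgeR adjusted p = 0.0451).

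Fabp7, a brain fatty acid binding protein of radial glia and astrocytes, was at 22.4, 16.5 and 21.8 CPM in control and 44.4, 37.3 and 34.4 CPM in CSDS (log2 fold change 0.93 ± 0.13, edgeR adjusted p = 0.0230). Hes5, a Notch target of neural precursors, was at 4.74, 3.86 and 4.19 CPM against 8.90, 7.59 and 8.88 CPM (0.99 ± 0.18, edgeR adjusted p = 0.0420). The groups did not overlap for either gene. Of 14 astrocyte genes, by contrast, 5 were higher, 9 lower and 0 called, with a median of -0.11. Ldb2, Fezf2 and Meis2, regulators of transcription, were called higher, with log2 fold changes of 1.15, 0.73 and 0.67.

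Neuropeptides are packed in granules, cut by convertases and released on strong firing. Vgf, a granule peptide precursor, was at 133, 132 and 132 CPM in control and 187, 206 and 169 CPM in CSDS (log2 fold change 0.50 ± 0.09, edgeR adjusted p = 0.0420). The controls agreed closely and all CSDS libraries were above them. Adcyap1, which encodes the peptide PACAP, was at 1.80, 3.01 and 1.14 CPM against 7.44, 4.44 and 8.94 CPM (1.81 ± 0.34, edgeR adjusted p = 0.0435). Pcsk1, the convertase whose promoter is printed above, was at 14.7, 13.3 and 10.7 CPM against 23.3, 21.0 and 21.6 CPM (0.77 ± 0.13, edgeR adjusted p = 0.0377). Of 22 neuropeptide and granule genes, 17 were higher and 2 called (0.245% of all tested genes were called higher), with a median of 0.26. For 7 the CSDS libraries lay above the controls without overlap and for 1 below, against 10.4% and 10.2% of all tested genes. Nts, neurotensin, was at 4.34, 3.79 and 0.957 CPM against 18.8, 7.13 and 7.48 CPM without passing (edgeR adjusted p = 0.0871), and Crh, the corticotropin-releasing hormone, at 1.67, 1.63 and 1.08 CPM against 1.58, 1.23 and 1.58 CPM. Npsr1, the neuropeptide S receptor, was called from few reads, with 1, 3 and 0 counts in control and 38, 14 and 17 counts in CSDS.

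Several signalling and channel genes were called lower in CSDS, while the kinase genes Camk1 and Mapk11 were called higher, with log2 fold changes of 0.48 and 0.63. Adcy1, a calcium-stimulated adenylyl cyclase of synapses, was at 1012, 1069 and 1369 CPM in control and 581, 508 and 763 CPM in CSDS (log2 fold change -0.90 ± 0.15, edgeR adjusted p = 0.0314). Adcy9, another adenylyl cyclase, was at 53.9, 59.0 and 77.6 CPM against 33.1, 34.3 and 39.2 CPM (-0.84 ± 0.13, edgeR adjusted p = 0.0314). Every CSDS library was below every control for both cyclases. Prkcd, protein kinase C delta, was at 18.8, 17.5 and 19.2 CPM against 9.78, 9.93 and 10.2 CPM, with little spread in either group (-0.89 ± 0.12, edgeR adjusted p = 0.0173). Camk2b, a subunit of the calcium-dependent kinase of the synapse, fell by 0.42 ± 0.08 on the log2 scale, from 1559, 1710 and 1756 CPM to 1204, 1258 and 1281 CPM (edgeR adjusted p = 0.0420). Ddn, dendrin, a protein of dendrites, was at 2122, 2376 and 2696 CPM against 1570, 1612 and 1720 CPM (edgeR adjusted p = 0.0365).

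Kcna1, a voltage-gated potassium channel of axons, was at 41.1, 43.7 and 63.7 CPM in control and 25.9, 16.1 and 23.95 CPM in CSDS (log2 fold change -1.17 ± 0.19, edgeR adjusted p = 0.0314). It was the 1 called gene of 35 voltage-gated potassium channel genes, of which 24 were lower and 11 higher (median -0.07). Among all tested genes 0.27% were called lower. Cacng5, an auxiliary subunit of AMPA receptors, was at 14.6, 12.3 and 14.6 CPM against 6.37, 5.26 and 7.48 CPM (-1.12 ± 0.17, edgeR adjusted p = 0.0296), and 23 of 34 sodium and calcium channel genes were lower with a median of -0.11. Orai2, a pore subunit of store-operated calcium entry, was at 273, 301 and 318 CPM against 168, 183 and 189 CPM (-0.72 ± 0.09, edgeR adjusted p = 0.0111). Among glutamate receptors 0 of 24 were called, and Gria1, an AMPA receptor subunit, was at 1173, 1169 and 1274 CPM against 883, 1035 and 912 CPM (edgeR adjusted p = 0.0871). Wipf3, an actin regulator of the WASP-interacting family, had the smallest p of the lower genes, at 733, 696 and 728 CPM against 421, 414 and 478 CPM (-0.72 ± 0.09, edgeR adjusted p = 0.00642). Malat1, an abundant nuclear noncoding RNA, was at 819, 722 and 635 CPM against 388, 391 and 520 CPM (-0.74 ± 0.13, edgeR adjusted p = 0.0353).

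Clustered protocadherins are surface proteins by which neurons tell their own branches from those of others. Of 53 tested members 45 were below control and 0 called, with a median of -0.41 against 0.002 for all tested genes. For 21 of the 53 the CSDS libraries lay below the controls without overlap, as for 10.2% of all tested genes. Pcdhgc5 was at 46.5, 54.7 and 64.3 CPM in control and 35.9, 40.5 and 37.4 CPM in CSDS (edgeR adjusted p = 0.0664). Members of the alpha and gamma clusters share their last exons within a cluster, so reads there cannot be assigned to 1 member.

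Many genes of protein synthesis and respiration were slightly higher without a call. Of 79 nuclear subunits of the respiratory chain 72 were higher (median 0.26), of 83 cytoplasmic ribosomal proteins 77 (median 0.19) and of 77 mitochondrial ribosomal proteins 72 (median 0.17), with 0 called in each list. Rpl35, of the large ribosomal subunit, was at 118, 137 and 125 CPM in control and 172, 175 and 156 CPM in CSDS (edgeR adjusted p = 0.0765). Of 30 chaperones of the endoplasmic reticulum, which fold secreted proteins, 25 were higher and 0 called (median 0.19). Calr, calreticulin, was nearest to a call, at 252, 276 and 262 CPM against 374, 381 and 318 CPM (edgeR adjusted p = 0.0642). The ribosomal RNAs of mitochondria were called higher: mt-Rnr2 was at 6890, 5830 and 7204 CPM against 9838, 10910 and 9298 CPM (log2 fold change 0.59 ± 0.10, edgeR adjusted p = 0.0314).

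Gene length moved with these differences. It is the length the authors give for each gene, which can be far below the span on the chromosome. Wipf3 has a length of 7114 bases but runs from 54429603 to 54503768 on chromosome 6. The median log2 fold change ran from 0.14 in the shortest eighth of genes to -0.09 in the longest, and called higher genes had a median length of 2647 bases against 7048 for called lower genes and 4099 for all tested. The median deviation of the shortest minus the longest bin was -0.151, -0.00045 and -0.174 in the control libraries and 0.171, 0.163 and 0.0388 in CSDS (exact permutation test, two-sided, p = 0.1, the smallest possible). With each library's trend by length removed, 37 genes passed, 16 higher and 21 lower, and all 37 were among the 84. Hba-a1, Tmsb10, Ttr, Wipf3, Prkcd, Kcna1, Adcy1 and Pcsk1 were among them, whereas Vgf (adjusted p = 0.0687), Adcyap1 (0.0687), Stmn1 (0.0584), Gap43 (0.0584), Hes5 (0.0696), Dsp (0.0584), Pdzd2 (0.0702), Camk2b (0.0836) and mt-Rnr2 (0.0699) were not. The medians became 0.15 for the respiratory chain, 0.11 for cytoplasmic and 0.10 for mitochondrial ribosomal proteins, 0.13 for chaperones and 0.13 for neuropeptides, while those of dentate genes (-0.35) and protocadherins (-0.39) stayed close to their values above.

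**Figure D3:**
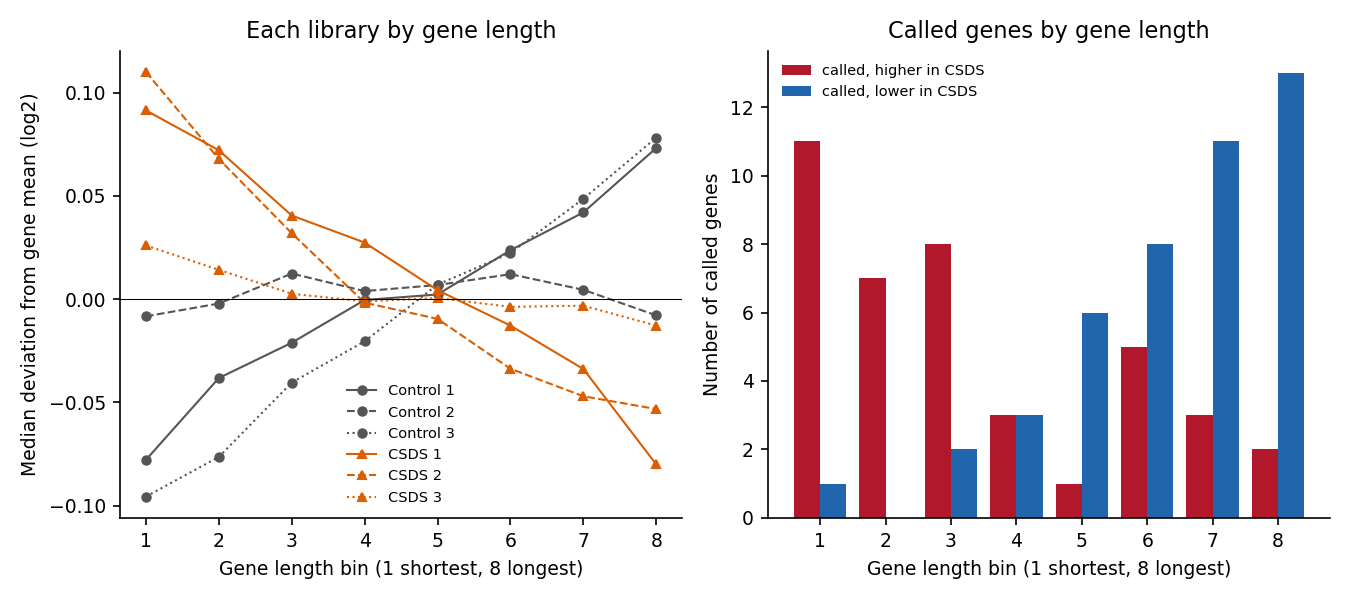
Left, median deviation of each library from the mean of each gene (log2) in 8 bins of gene length, with circles for control and triangles for CSDS. Right, number of called genes per bin: 11 of the shortest bin were higher and 1 lower, against 2 and 13 in the longest.

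Groups tied to stress hormones, activity and inflammation held few calls. Of 22 glucocorticoid-induced genes 19 were lower and 0 called, with a median of -0.38 that was -0.06 without Control 2. Zbtb16, one of them, was at 31.2, 36.5 and 34.7 CPM in control and 21.1, 23.2 and 27.1 CPM in CSDS (edgeR adjusted p = 0.0669), while Fkbp5, a co-chaperone that glucocorticoids induce, overlapped at 80.8, 110 and 74.4 CPM against 81.4, 72.1 and 79.5 CPM. Nr3c1, the glucocorticoid receptor, was at 83.4, 66.2 and 109 CPM against 80.7, 89.4 and 80.2 CPM. Of 22 immediate early genes 13 were higher and 1 was called higher, as were 0.245% of all tested genes. It was Fosl2, a Fos-related subunit of AP-1, at 29.0, 30.0 and 29.6 CPM against 45.2, 41.6 and 38.2 CPM (log2 fold change 0.50 ± 0.09, edgeR adjusted p = 0.0420). Fos itself overlapped between groups, at 4.01, 1.63 and 5.38 CPM against 4.92, 5.02 and 6.08 CPM, as did Bdnf, a neurotrophin, at 62.5, 44.3 and 86.6 CPM against 52.2, 74.5 and 54.6 CPM. Ddit4l, an inhibitor of mTOR signalling, was called higher, at 8.94, 6.34 and 6.16 CPM against 15.9, 11.0 and 19.9 CPM (1.13 ± 0.22, edgeR adjusted p = 0.0489).

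Of 16 inflammatory genes 5 were higher and of 16 microglia genes 10 were higher, with 0 called in either list and medians of -0.10 and 0.03. Aif1, a microglial protein, was at 4.14, 5.69 and 7.66 CPM in control and 7.57, 6.02 and 6.63 CPM in CSDS, and Gfap, the astrocyte filament, at 364, 325 and 383 CPM against 382, 249 and 293 CPM. Both overlapped. Of 22 enzymes that make or use acetyl-CoA and acetate 13 were higher and 0 called (median 0.03). Acss2, which makes acetyl-CoA from acetate, differed by 0.05 ± 0.09 on the log2 scale (edgeR adjusted p = 0.822), and Acot12, an acetyl-CoA thioesterase of liver, was near the detection limit with 7 to 14 counts per library.

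Other called genes had varied roles. Igfbp6, a binding protein of insulin-like growth factors, was at 5.01, 10.1 and 5.86 CPM in control and 16.2, 14.6 and 17.3 CPM in CSDS (log2 fold change 1.20 ± 0.22, edgeR adjusted p = 0.0420), and the groups did not overlap. Stxbp5l, a tomosyn that restrains vesicle fusion, was at 29.7, 29.4 and 44.6 CPM against 19.1, 19.3 and 18.5 CPM (-0.87 ± 0.15, edgeR adjusted p = 0.0377), with Control 3 highest. Trpm3, a cation channel also known from choroid plexus, was at 36.6, 35.2 and 42.4 CPM against 23.9, 15.4 and 22.4 CPM (-0.89 ± 0.15, edgeR adjusted p = 0.0314). Plekhg1 (-1.02), Garem1 (-0.87), Soga1 (-0.85), Nhsl2 (-0.67) and 2010300C02Rik (-0.67) were called lower, and Gm11361 (0.99), a gene model listed as protein coding, was called higher. Bglap3 was called from low levels, at 0.267, 0.0654 and 0 CPM in control and 2.59, 0.701 and 2.55 CPM in CSDS.

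Further lists held few or no calls. Among vessel and covering cells, 7 of 15 endothelial genes were higher (median -0.02), 8 of 9 mural cell genes (0.13), 5 of 10 meningeal genes (0.09) and 24 of 37 collagen genes (0.18), with 0 called. Vwf, a clotting factor carrier made by endothelium, was at 25.03, 29.7 and 27.2 CPM in control and 23.8, 10.1 and 14.5 CPM in CSDS (edgeR adjusted p = 0.134). Cdh5, the cadherin of endothelial junctions, was at 10.5, 8.30 and 11.2 CPM against 15.1, 11.3 and 11.6 CPM (edgeR adjusted p = 0.367). Of oligodendrocyte and myelin genes 2 of 17 were higher (-0.10) and of their precursors 6 of 10 (0.07), again with 0 called. Among receptors, 5 of 14 GABA receptor genes (-0.10) and 6 of 11 serotonin receptor genes (0.001) were higher with 0 called. On the list of neurotrophins and their receptors 4 of 11 genes were higher (-0.08). Its 1 called member, Vgf, is the granule peptide precursor described above and not itself a neurotrophin. Vgf was called higher, as were 0.245% of all tested genes.

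Heat shock proteins were higher for 20 of 24 genes (0.11) and proteasome subunits for 35 of 46 (0.08), with 0 called. The integrated stress response list had 10 of 18 higher (0.06) and the mTOR list 7 of 18 (-0.09). Ddit4l was called higher on both lists, as were 0.245% of all tested genes. On the list of the CRH system and corticosteroid receptors 5 of 9 were higher (0.01). Its 1 call was Npsr1, the neuropeptide S receptor, which is on that list but belongs to neither group. Npsr1 was called higher, again against 0.245% of all tested genes. The counts without a call were 10 of 19 for clock genes (0.03), 17 of 26 for sterol and fatty acid synthesis (0.10), 13 of 23 for histone acetylation (0.004), 17 of 29 for other potassium channels (0.03), 16 of 23 for synaptic vesicle genes (0.05), 10 of 25 for interferon response and antigen presentation (-0.05) and 11 of 13 for proteins encoded by the mitochondrial genome (0.29). That last median was 0.54 without Control 1. None of its 13 genes separated the groups, while 20.6% of all tested genes did. Hspb1, a small heat shock protein, was at 3.14, 2.48 and 4.49 CPM against 6.69, 7.30 and 5.11 CPM (edgeR adjusted p = 0.109).

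**Figure D4:**
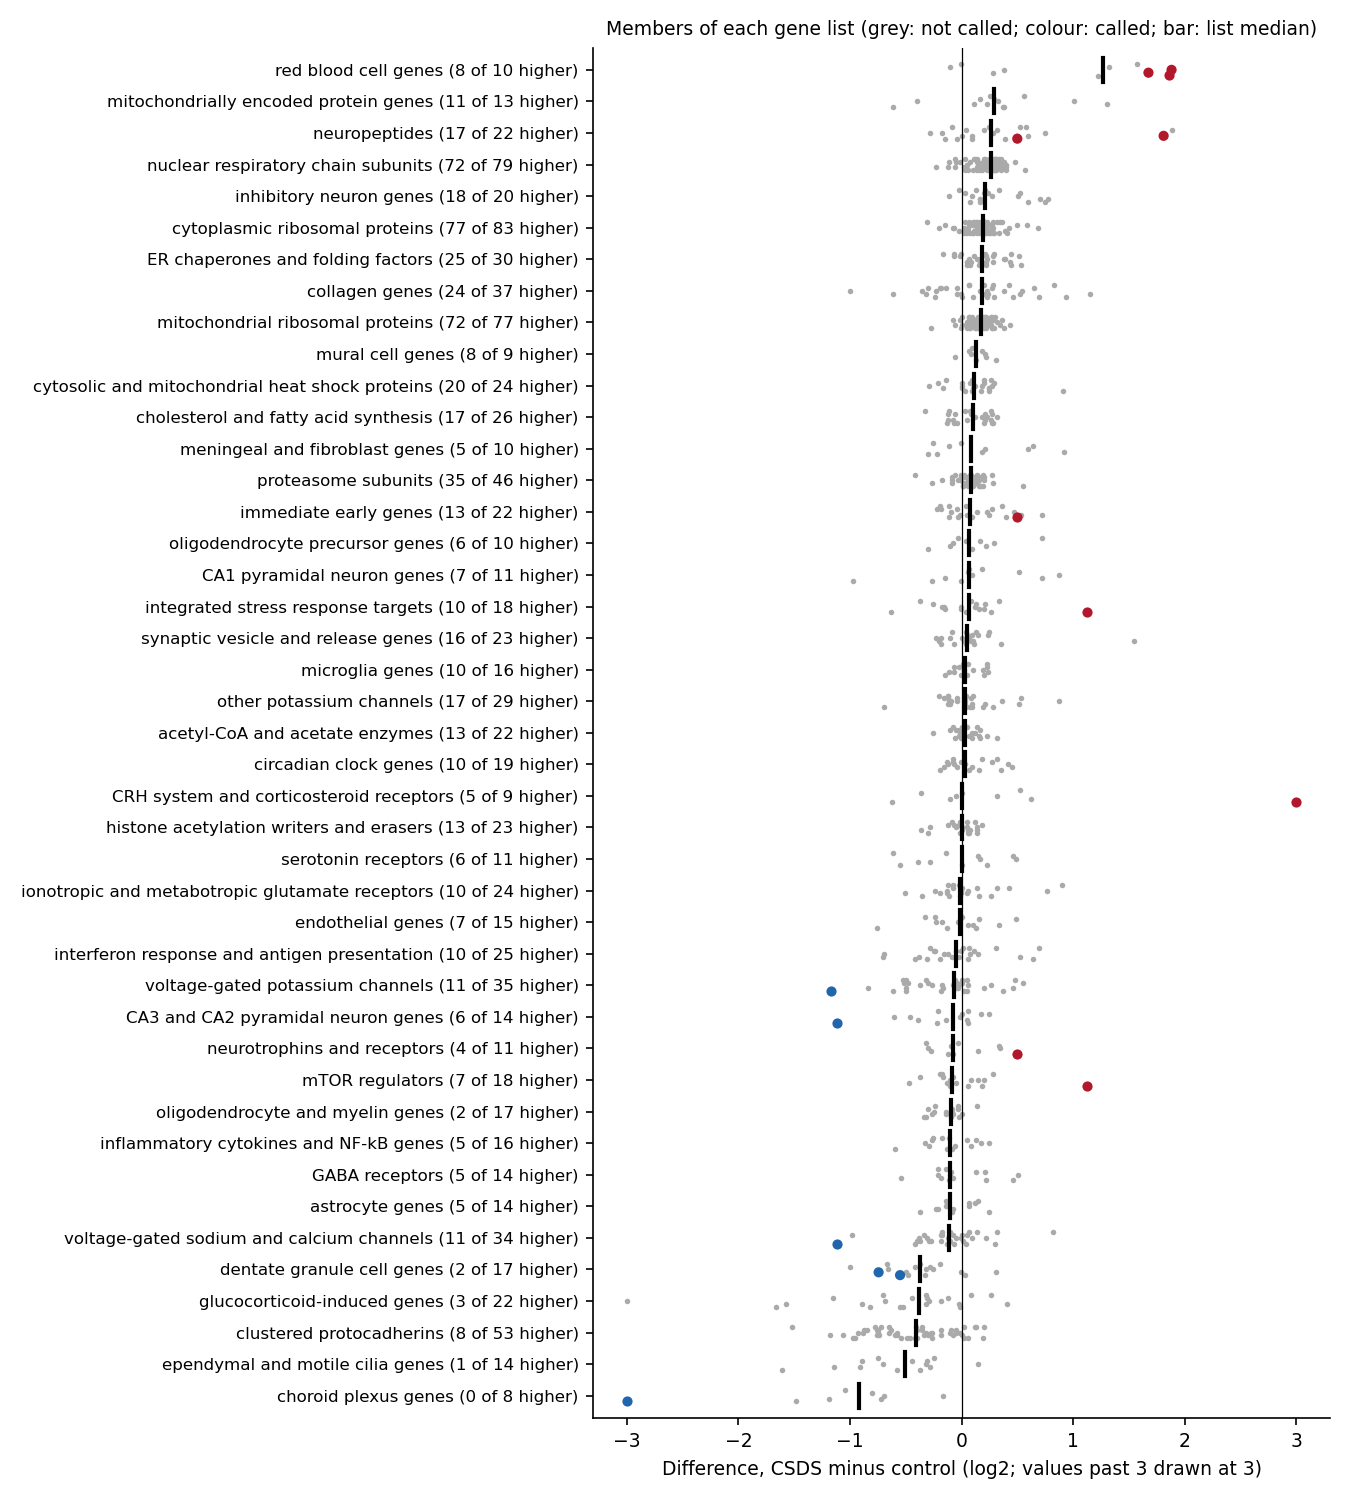
Differences between CSDS and control (log2) for the tested members of 43 gene lists, ordered by list median (black bar), with called members coloured. Red blood cell genes lie highest at 1.27 and choroid plexus genes lowest at -0.92; lists share some members.

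Within the groups, single genes varied far more than the typical gene. Gapdh, a glycolytic enzyme with many pseudogene copies, was at 11.0, 163 and 10.5 CPM in control and 367, 9.58 and 9.12 CPM in CSDS, high in 1 library of each group. Plin4, a lipid droplet protein, was at 11.9, 42.8 and 1.62 CPM against 3.91, 0.993 and 1.34 CPM. Srp54b, a signal recognition particle subunit, was at 10.0, 8.50 and 19.0 CPM against 6.44, 14.4 and 0.851 CPM. Above a mean log2 CPM of 3, Ttr had the largest SD in control (3.06) and Gapdh the largest in CSDS (3.05). Neither Gapdh, Plin4 nor Srp54b was called. CSDS 2 stood apart from CSDS 1 and CSDS 3 for Slc17a6, the vesicular glutamate transporter of subcortical neurons, at 27.1, 5.55 and 24.8 CPM in CSDS 1, 2 and 3 against 3.83 to 8.37 CPM in control, and the gene was not called (edgeR adjusted p = 0.130).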

How the data were processed

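RNA was sequenced from the ventral hippocampus with the NEBNext Ultra kit, per the labels' protocols. The kit's name gives no sign of strand, so antisense partners cannot be told apart. The count table was deposited as raw read counts of genes, from reads aligned to mm10 with HISAT2 2.0.5 and counted with featureCounts 1.5.0-p3, and DESeq2 was also named, per the submitters' processing notes. FPKM values, used for alternatives alone, followed the authors' counts over gene length and a factor for each library. In the control and CSDS libraries that factor was 0.974 to 1.03 times the total count. Gene length, per the file headers, is a unit other than expression. The annotation release and strand setting are not given in the sources used here.

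In R 4.3.3, filterByExpr from edgeR 4.0.16, at a count minimum of 10 and a total of 15, left 16325 of 30614 genes with a count among 54532 listed. Libraries were scaled by TMM, and group was the only factor of a quasi-likelihood fit of the 6 libraries, with adjustment over all genes. SE is the absolute log2 fold change over the square root of F. Symbols that had become dates (27 genes) were looked up again from their gene IDs. Promoters come from RefSeq (GRCm38.p6), which matched 11692 of the tested genes and 59 of the 84 called genes by symbol. The test was tried on simulated data.

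The comparison and the 43 gene lists were chosen with earlier results of these data known, and lists are described by counts and medians. Genes were named by a rule: the 10 largest changes each way among called genes at 1 or more mean log2 CPM, the 5 smallest p each way, up to 4 called members of each list or else the 2 with the smallest p, a fixed set (Acot12, Acss2, Bdnf, Fos, Fkbp5, Nr3c1, Gfap, Aif1, Il1b), and the 5 genes per group with the largest SD. A few genes that the rule names are not reported here. Other called genes and list members in the text were chosen after their values were seen. Il1b had too few counts to be tested. Alternatives used DESeq2 1.42.0 and limma 3.58.1.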

Additional observations from a re-analysis of the deposited data

How the results depend on the processing

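Of 18 alternatives, 5 kept the count of 84 called genes within 1.5 times. DESeq2 size factors called 82, the filter of 50 counts in 3 libraries 73 and the fit without mitochondrial genes 87. The DESeq2 Wald test called 511 (81 of the 84), no filter 903 (84), limma-voom with quality weights 282 (83) and removal of the length trend 37 (37). A minimum log2 fold change of 0.3 left 4, limma-trend on log2 of FPKM plus 0.1 or plus 1 left 3 each (2409 at an unadjusted p under 0.05 in each) and the fit of all 12 libraries 0 (993). Leaving out 1 library gave 5 to 242 calls. The length trend removed was a curve fitted to each of these same libraries, which can also take up group differences that follow length. The cause of these changes in the count was not tested. What a replicate number stands for is not given in the sources used here, and the deviations of same-numbered libraries correlated at -0.00161, -0.0183 and 0.0499; with the replicate block 87 genes were called, 57 of them among the 84.

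For called genes the direction was the same in every alternative that gave a value. Their CSDS and control libraries did not overlap in CPM, so leaving out a library could hardly reverse it. The same direction is therefore no separate support for these calls. Among named genes that were not called, 3 changed sign. Acot12 (0.02) was at -0.00348 with limma-trend on FPKM plus 0.1, -0.00885 with the length trend removed and -0.189 to 0.285 when each library was left out in turn, with a negative sign without Control 3, CSDS 1 or CSDS 3. Bdnf (-0.09) ran from -0.31 without Control 2 to 0.18 without Control 3, and was at 0.00103 without CSDS 1. Nr3c1 (-0.05) was at 0.014 with the length trend removed and ran from -0.214 without Control 2 to 0.158 without Control 3. Restricting genes to a mean log2 CPM of at least 3 gave median SDs of 0.116 in control and 0.120 in CSDS. Genes under about 1 CPM, such as Npsr1, rest on few counts.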
